A study of Mus musculus with 42 samples.

Results

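Genes of insulin signalling and glucose transport were read in aorta and skeletal muscle of healthy, diabetic and treated mice. The set holds 10 genes, taken by symbol: the growth factor Igf1, the receptors Insr and Igf1r, the receptor substrates Irs1 and Irs2, the inhibitor Grb10, the kinase genes Pik3r1 and Akt2, and the glucose transporters Slc2a4 and Slc2a1. Probes with these names covered 9 of the 10, of 21186 genes with a symbol on the array. No probe was named Irs2, and that gene was not measured here.

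The study placed 42 single-colour Agilent arrays, 3 for each of 7 groups in each tissue, on 11 slides, which were scanned on 4 days. All mice were male, per the study's methods. The methods give an age of 18 to 20 weeks where the mice are introduced, before the weeks of diet and treatment, and no age at tissue collection. Group G was healthy C57BL/6 mice given saline, and group A was diabetic KK/Ay mice given saline. KK/Ay mice carry yellow agouti (Ay) on the inbred KK background, which makes them obese and resistant to insulin, so strain and diabetes cannot be told apart in a comparison with group G. Group C, the macroangiopathy model, was KK/Ay mice fed a high-fat diet for 8 weeks with L-NAME, which blocks nitric oxide synthesis, in the drinking water, and then given saline. Groups B, D, E and F were mice of that model treated by gavage for 8 weeks with SHENQI compound, with its yangyinyiqi part, with its huoxue part or with rosiglitazone, an agonist of the nuclear receptor PPAR gamma. Per the study's methods, muscle was collected from 3 mice of each group, and aorta as well. The labels tie no array to a mouse and no aorta to a muscle, so a p-value measures the spread between these arrays.

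Insulin and insulin-like growth factor 1 bind related receptor tyrosine kinases, which phosphorylate substrate proteins that recruit phosphoinositide 3-kinase and thereby activate AKT kinases. In skeletal muscle and fat, AKT2 brings the transporter GLUT4, encoded by Slc2a4, to the cell surface, where it takes up glucose in response to insulin. GLUT1, encoded by Slc2a1, sits at the surface without insulin and is broadly expressed, and resistance of muscle to insulin is a defining feature of type 2 diabetes. An mRNA level measures neither phosphorylation nor the place of a transporter in the cell.

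The 9 genes were read through 23 probes of 60 bases on 41 spots per array. The probe sequences shown here are those of both transporters, each read by a single probe, and of 4 genes whose probes differed in a comparison. Each line gives the first 30 bases as deposited, from the 5′ end, and the coordinates are those of the whole probe in mm9. Probe A_51_P187151 is mapped to an interval longer than the probe. Whether a probe lies in coding sequence or an untranslated region is not given, because no annotation of that build was used.
Slc2a4, probe A_51_P217498, chr11:69756073-69756132, minus strand: gttttgaagaacggatagggagcagaaacc
Slc2a1, probe A_51_P464738, chr4:118809864-118809923, plus strand: acccacttgtaaatacaccaacaaactcct
Igf1, probe A_51_P147942, chr10:87393516-87393575, plus strand: cgcaggatcctttgctgcttgagcaacctg
Igf1, probe A_52_P351116, chr10:87396567-87396626, plus strand: tacttactcaatacctaggtcaaatgttga
Insr, probe A_52_P494514, chr8:3151667-3151726, minus strand: cagattctagctaatgaattcttgacaaca
Insr, probe A_52_P6490, chr8:3159473-3159532, minus strand: ggcaagggactgcttcctgtgaggtggatg
Irs1, probe A_52_P175242, chr1:82229692-82229751, minus strand: tacccccaattctgtctggtacttagaatt
Irs1, probe A_52_P171212, chr1:82233564-82233623, minus strand: aatgaatgcttaaaacaaggctaaaaagag
Grb10, probe A_51_P187151, chr11:11833580-11834228, minus strand: aagattaaaaacttccagatcttaccttgc
Grb10, probe A_52_P115787, chr11:11830965-11831024, minus strand: tttctaaatgacgactccgtgtaaccacct

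Levels are log2 of the background-corrected and quantile-normalized intensity, averaged over the probes of a gene, so a difference of 1 is a doubling. Between 53.83% and 77.64% of the probes with a symbol were well above background per array, and no spot of the 9 genes was saturated on any array. All probes of the 9 genes were well above background on 21 of 21 arrays of each tissue, except A_52_P171212 of Irs1 (19 aorta and 20 muscle arrays), A_52_P306327 of Igf1 (20 and 17) and A_52_P6490 of Insr (21 and 20). The muscle arrays carried the markers of their tissue, with a mean level of 8 skeletal muscle genes between 15.78 and 16.64. The aorta arrays were mixed: the mean of 6 smooth muscle genes lay between 9.66 and 14.61, that of 8 white or shared adipocyte genes between 11.25 and 13.79, that of 5 brown adipocyte genes between 11.96 and 14.66, and that of the skeletal muscle genes between 7.23 and 14.97. Healthy aorta array 1 stood apart from all others on the first component of the arrays, at 103.7 against at most 45.9. Among the aorta arrays it had the lowest smooth muscle level and the highest lymphocyte level (10.26 against a median of 7.21). Among the muscle arrays, healthy arrays 1 and 3 stood apart on that component, at 45.3 and 45.9, and the others lay between -11.3 and 8.4. Over the 21 muscle arrays this component ran with Slc2a1 (r = 0.864), Pik3r1 (r = 0.854) and Igf1r (r = 0.7), and against Slc2a4 (r = -0.702). In such bulk samples, fewer cells of a type and less RNA per cell cannot be told apart.

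Skeletal muscle held more Slc2a4, Irs1, Grb10 and Insr mRNA than aorta, and aorta held more Igf1r, Pik3r1 and Slc2a1 mRNA. Igf1 was higher in muscle in the mean over its probes, but only 1 of these probes passed. Slc2a4 differed most among the 9 genes, 3.26-fold lower in aorta. In a limma fit of all 42 arrays with group as a term, 8 of 9 genes differed between the tissues at an adjusted p below 0.05, 3 higher and 5 lower in aorta. Of all 16176 genes tested, 76.4% were called, 40.1% higher and 36.3% lower in aorta, so 8 of 9 is near the background. The 3 genes that were higher in aorta over all groups went the other way in healthy mice. Slide 4 was the 1 slide that held both tissues, and with slide as a block, which rests on it, Slc2a1 stood at -1.56, Pik3r1 at -1.06, Igf1r at -0.73 and Igf1 at 0.29, opposite to their direction without the block. That slide held diabetic aorta arrays 2 and 3 and, as its lone muscle array, healthy array 3, which stood apart on the first component. The turned directions thus rest on a single muscle array of another group. No other muscle array was scanned on the same day as an aorta array, so tissue and scan day can hardly be told apart.

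Slc2a4 ran from 11.42 to 14.59 over the 21 aorta arrays with a median of 13.20, and from 14.04 to 15.08 with a median of 14.93 in muscle. Its tissue difference was -1.71 on the log2 scale (SE 0.18, adjusted p = 1.12e-10), and in 6 of 7 groups every aorta array lay below every muscle array. The exception was the healthy group, where aorta arrays 2 and 3 (14.59 and 14.14) lay within the range of the muscle arrays (14.04, 14.60 and 14.32) and aorta array 1 fell far below them at 11.42. Slc2a4 is also an adipocyte gene, and its aorta level ran with the white or shared adipocyte level (Pearson r = 0.77 over the 21 aorta arrays, all normalized together) and against the lymphocyte level (r = -0.74). It also ran with the brown adipocyte (r = 0.72), endothelium (r = 0.67) and cardiac muscle (r = 0.58) levels and against the macrophage level (r = -0.64). The part of these cells in the aorta level was not tested.

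Irs1, the main substrate of the insulin receptor in muscle, ran from 6.84 to 9.40 in aorta with a median of 8.16, and from 8.73 to 10.19 in muscle with a median of 9.12. It was 2.02-fold lower in aorta (log2 -1.01, SE 0.13, adjusted p = 3.81e-09), without overlap in 6 of 7 groups. Both of its probes were lower in aorta, by log2 values of -1.48 for A_52_P175242 and -0.55 for A_52_P171212. In the healthy group, aorta array 2 at 9.40 lay above all 3 muscle arrays.

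Grb10, an adaptor that binds and inhibits the insulin and IGF-1 receptors, ran from 7.27 to 8.04 in aorta and from 7.90 to 8.44 in muscle, with medians of 7.76 and 8.18. The difference was -0.49 (SE 0.06, adjusted p = 9.74e-09), and all 3 of its probes were lower in aorta. Insr, the insulin receptor, ran from 7.00 to 7.81 in aorta and from 7.55 to 8.11 in muscle and differed by -0.30 (SE 0.06, adjusted p = 4.78e-05), with arrays that overlapped in 5 of 7 groups.

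Igf1, which muscle produces as a local growth factor, ran from 7.75 to 9.25 in aorta and from 8.05 to 9.06 in muscle. Its difference was -0.24 (SE 0.09, adjusted p = 0.0212), and it rested on 1 of its 4 probes. With slide as a random block it did not pass (-0.21, adjusted p = 0.114). Probe A_52_P351116 was lower in aorta by a log2 value of -0.93 (SE 0.11, adjusted p = 1.63e-09 over all probes), whereas A_51_P147942 and A_52_P536434 both stood at 0.08 and A_52_P306327 at -0.18, none of them past the threshold. The probe that differed lies downstream of A_51_P147942 on the plus strand, at the coordinates given with its sequence.

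Igf1r, the receptor of IGF-1, ran from 7.67 to 8.69 in aorta and from 7.62 to 8.48 in muscle, with medians of 8.34 and 7.84. It was higher in aorta by 0.41 (SE 0.07, adjusted p = 5.27e-06) on all 4 probes and without overlap in 5 of 7 groups, but stood at -0.19 in the healthy group. Its aorta level ran with the smooth muscle level (r = 0.88 over 21 arrays). Pik3r1, which encodes the regulatory subunit p85 alpha of phosphoinositide 3-kinase, was higher in aorta by 0.46 (SE 0.09, adjusted p = 4.59e-05), and stood at -0.32 in the healthy group. Among its probes the difference ran from -0.01 for A_52_P235476 to 0.85 for A_52_P307938.

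Slc2a1 ran from 9.17 to 10.71 in aorta and from 8.96 to 11.17 in muscle, with medians of 9.88 and 9.24. It was higher in aorta by 0.43 (SE 0.13, adjusted p = 0.0025), from -0.53 in the healthy group to 0.95 in the SHENQI group, and 3 of 7 groups had no overlap. Akt2, the AKT kinase of insulin-responsive tissues, did not pass (log2 -0.24, SE 0.13, adjusted p = 0.0892), and its aorta arrays spread from 9.38 to 11.08 against 10.20 to 11.04 in muscle. Of 76 other genes of the pathway that could be tested, 55 passed, 30 higher and 25 lower in aorta, where 76.4% of all genes were called. Igfbp7, which binds insulin-like growth factors, was the highest of these in aorta at 2.16, followed by the sugar transporters Slc2a5 at 1.97 and Slc2a6 at 1.5, and the transporter Slc2a12 was the lowest at -1.98, followed by the factor Foxo4 at -1.30 and the lipid phosphatase Inppl1 at -0.95.

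**Figure D1:**
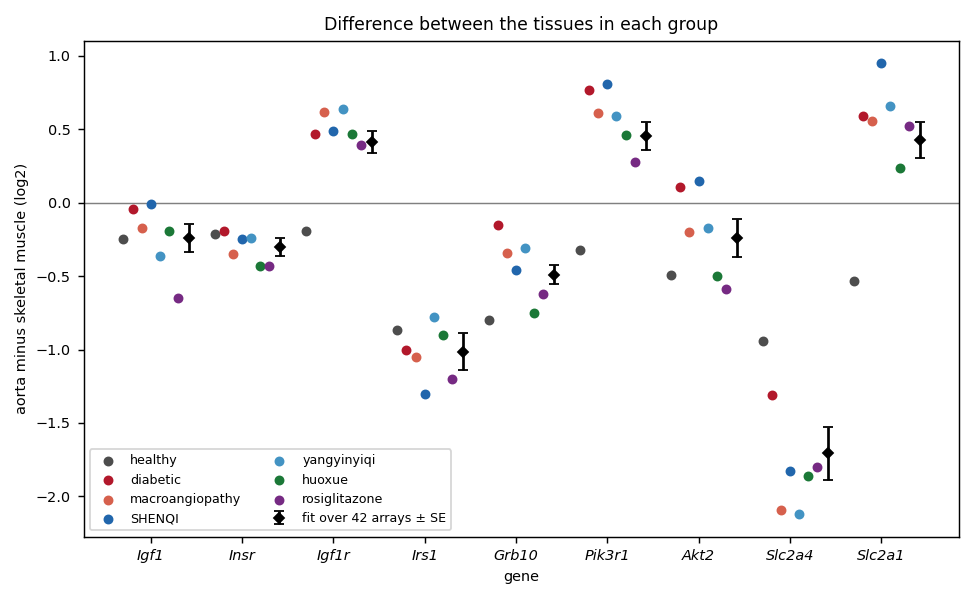
Difference between aorta and skeletal muscle for each gene (y axis, log2 scale), with 1 point per group for the difference of the group means over 3 arrays each, and a black diamond with its SE for the fit over 42 arrays. Slc2a4 lies between -2.12 and -0.94 in all groups and Irs1 between -1.30 and -0.78, whereas the healthy group (grey) lies below 0 for Igf1r, Pik3r1 and Slc2a1.

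The comparison of A vs G asks how the diabetic strain differs from healthy mice, and C vs G asks the same of the macroangiopathy model. In the fit that takes both tissues together (12 arrays, tissue as a term), 0 of 9 genes passed after adjustment in A vs G, where 4.5% of 14808 genes did, and 0 of 9 in C vs G, where 5.17% of 15741 genes did. At an unadjusted p below 0.05, the threshold of the study's methods, limma called 1 of 9 in A vs G (22.1% of all genes) and 0 of 9 in C vs G (24.3%). The one was Slc2a1, at -0.75 (SE 0.31, adjusted p = 0.183). Both comparisons use the same 6 healthy arrays.

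In skeletal muscle taken alone, the transporters moved in opposite directions: Slc2a4 was higher and Slc2a1 lower in both KK/Ay groups than in healthy muscle. The receptor Igf1r and the kinase genes Pik3r1 and Akt2 were lower as well, whereas Igf1, Insr, Irs1 and Grb10 did not pass. In A vs G, limma over the 21 muscle arrays called 5 of 9 genes, 1 higher and 4 lower, where 27% of all 13881 genes were called (15.9% higher, 11.1% lower). In C vs G it called the same 5 in the same directions, where 25.4% of genes were called (14.9% higher, 10.5% lower), with the healthy arrays shared. The share of called members was thus above that of all genes in both, and no test was made of that difference.

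Slc2a4 stood at 14.04, 14.60 and 14.32 on the healthy muscle arrays, at 15.03, 14.93 and 15 on the diabetic and at 14.97, 14.98 and 15.05 on the macroangiopathy arrays. All KK/Ay arrays of both groups lay above all healthy ones. The difference was 0.66 in A vs G (SE 0.11, adjusted p = 0.000437, 1.58-fold higher) and 0.68 in C vs G (adjusted p = 0.000377, 1.61-fold higher).

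Slc2a1 stood at 10.15, 9.89 and 11.17 in healthy muscle, at 9.06, 9.24 and 8.99 in diabetic and at 8.96, 9.43 and 9.22 in macroangiopathy muscle. All healthy arrays lay above all KK/Ay arrays, and the third healthy array lay farthest above. The difference was -1.31 in A vs G (SE 0.24, adjusted p = 0.000682, 2.47-fold lower) and -1.20 in C vs G (adjusted p = 0.00142, 2.3-fold lower). Without healthy muscle array 3 it was -0.92 and -0.82 and passed in both. Without the arrays of slides 1, 3 and 11, where array 3 is the lone healthy muscle array, it was -2.07 and -1.97.

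Igf1r stood at 7.99, 8.12 and 8.48 in healthy muscle, at 7.79, 7.62 and 7.86 in diabetic and at 7.83, 7.67 and 7.85 in macroangiopathy muscle. All healthy arrays lay above all KK/Ay arrays, and those of both KK/Ay groups overlapped. The difference was -0.44 (SE 0.10, adjusted p = 0.00462) in A vs G, with its 4 probes between -0.50 and -0.36, and -0.41 (adjusted p = 0.00743) in C vs G.

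Pik3r1 stood at 9.79, 8.73 and 9.68 in healthy muscle, at 8.69, 8.82 and 8.82 in diabetic and at 8.78, 8.64 and 8.87 in macroangiopathy muscle. The second healthy array lay among the KK/Ay arrays and the other two well above them. The difference was -0.63 (SE 0.20, adjusted p = 0.0252) in A vs G and -0.64 (adjusted p = 0.0233) in C vs G. It was -0.43 (adjusted p = 0.125) and -0.45 (adjusted p = 0.118) without healthy muscle array 1, and -0.49 (adjusted p = 0.0878) and -0.50 (adjusted p = 0.0796) without array 3. It did not pass either without diabetic muscle array 1 (adjusted p = 0.0806) or 3 (adjusted p = 0.0553) in A vs G, or without macroangiopathy muscle array 1 (adjusted p = 0.0604) or 2 (adjusted p = 0.0754) in C vs G. With slide as a random block it did not pass in A vs G (-0.67, adjusted p = 0.102).

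Akt2 stood at 10.39, 10.97 and 11.04 in healthy muscle, at 10.44, 10.21 and 10.44 in diabetic and at 10.31, 10.20 and 10.39 in macroangiopathy muscle. The first healthy array lay at the level of the highest KK/Ay arrays. The difference was -0.44 (SE 0.14, adjusted p = 0.0248) in A vs G and -0.50 (adjusted p = 0.0128) in C vs G. In A vs G it did not pass without healthy muscle array 2 (-0.35, adjusted p = 0.0762), healthy muscle array 3 (-0.32, adjusted p = 0.0916) or diabetic muscle array 2 (-0.36, adjusted p = 0.0985), and in C vs G it passed with each array left out (adjusted p up to 0.0493). With slide as a random block it passed in neither (-0.48, adjusted p = 0.0937 in A vs G and -0.46, adjusted p = 0.0671 in C vs G).

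Among the genes that did not pass, Igf1 ran from 8.05 to 9.0 in healthy muscle and from 8.38 to 8.69 in the KK/Ay groups together. Irs1 stood at 9.03, 9.27 and 8.93 in healthy, at 9.32, 9.57 and 9.42 in diabetic and at 9.53, 9.12 and 9.10 in macroangiopathy muscle. The diabetic arrays lay above all healthy ones and the macroangiopathy arrays overlapped them, with differences of 0.36 (adjusted p = 0.287) and 0.17 (adjusted p = 0.641). Grb10 stood at -0.17 in A vs G (adjusted p = 0.238) and at -0.22 in C vs G (adjusted p = 0.122, unadjusted p = 0.0438 in limma). Here the probes of a gene differed. Insr read by A_52_P494514 was lower in diabetic muscle by a log2 value of -0.47 (adjusted p = 0.0045 over all probes) and by A_52_P6490, which was not well above background on 1 muscle array, stood at 0.12. Grb10 read by A_52_P115787 was lower by -0.46 (adjusted p = 0.0124) and its other probes stood at 0.05 and -0.09. Irs1 read by A_52_P171212, also not well above background on 1 muscle array, was higher by 0.79 (adjusted p = 0.0229) and by A_52_P175242 stood at -0.06.

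Slides and cell markers moved with these differences. Healthy muscle arrays lay on slides 3 and 4, and no diabetic or macroangiopathy muscle array lay on those slides. All diabetic and macroangiopathy muscle arrays were scanned on the same day, and no healthy muscle array was. Slide, scan day and group thus cannot be told apart here. Slc2a4 read 14.04 to 14.83 on the 8 muscle arrays of slides 3 and 11 and 14.32 to 15.08 on the 13 others, where the lowest was the healthy array on slide 4. With slides 1, 3 and 11 as a term in a model over 42 arrays, Slc2a4 in A vs G muscle was 0.43 (adjusted p = 0.684), and without that term in the same model it was 0.66 (adjusted p = 0.442). Of the 5 genes, Slc2a1 alone passed in that model with or without the term, in A vs G and in C vs G, and none passed with only the 6 arrays compared (adjusted p from 0.0777 to 0.263 in A vs G and from 0.0799 to 0.253 in C vs G). Macrophage markers (5 genes) averaged 9.0 to 10.1 on healthy muscle arrays and 8.47 to 8.95 on all other muscle arrays, with 4 of 5 lower in A vs G and in C vs G. Their level ran with Slc2a1 (r = 0.90 over 21 muscle arrays), with Igf1r and Pik3r1 (r = 0.80 each) and with Akt2 (r = 0.57), and against Slc2a4 (r = -0.63). Red cell genes averaged 11.08 to 11.48 in healthy, 10.33 to 10.72 in diabetic and 10.69 to 11.08 in macroangiopathy muscle, with 3 of 3 lower in A vs G and 1 of 3 in C vs G. Of 8 white or shared adipocyte genes, 2 were lower and 1 higher in each comparison. Of 6 smooth muscle genes, 2 were higher in each, and of 4 brown adipocyte genes, 2 were higher in A vs G and 1 in C vs G. Further calls were 1 of 8 skeletal muscle genes higher in each, and 1 of 4 lymphocyte genes and the 1 liver gene tested lower in C vs G. The part of these cells in the differences was not tested.

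**Figure D2:**
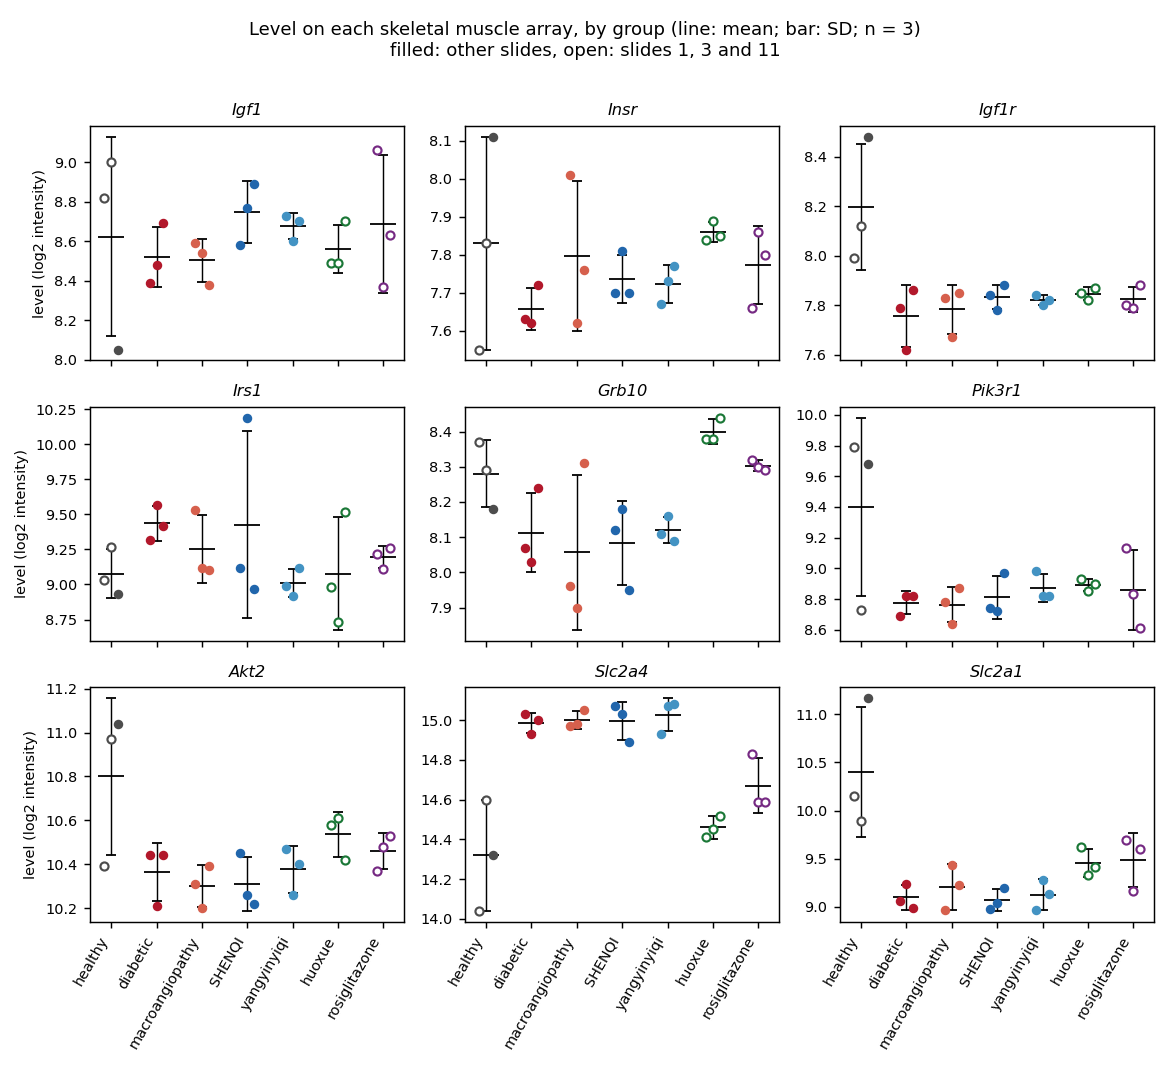
Level of each of the 9 genes on the 21 skeletal muscle arrays (y axis, log2 intensity; x axis, group), with 1 point per array, the mean as a line and the SD as a bar, and open points for arrays on slides 3 and 11. Healthy arrays lie lowest for Slc2a4 (14.04 to 14.60) together with the huoxue arrays (14.41 to 14.52), and highest for Slc2a1 (9.89 to 11.17) and Igf1r (7.99 to 8.48).

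Other genes of the pathway, from a list of 78 on the array, moved in both directions in muscle. In A vs G, 14 of 71 tested passed, 7 higher and 7 lower, where 27% of all genes were called. The largest increases were in Igfbp6, a binding protein of insulin-like growth factors, at 1.10, the adaptor Dok4 at 0.88, and Inppl1, which removes a phosphate from the lipid product of phosphoinositide 3-kinase, at 0.87. The largest decreases were in Igfbp3, the main carrier of IGF-1 in blood, at -1.86, in Eif4ebp1, a brake on translation that mTOR relieves, at -1.78, and in Foxo1, a transcription factor that AKT holds out of the nucleus, at -1.17. In C vs G, 16 of 71 passed, 8 each way, where 25.4% of all genes were called. The same 6 genes led, with Igfbp6 at 1.02, Inppl1 at 0.88, Dok4 at 0.62, Igfbp3 at -1.70, Eif4ebp1 at -1.12 and Foxo1 at -1.10. In the fit over both tissues, 2 of 74 passed in A vs G (4.5% of all genes), Dok4 at 1.0 and Igfbp3 at -1.65. In C vs G 4 of 76 passed (5.17% of all genes), the receptor adaptor Grb14 at 1.07, the GTPase Rheb at 0.42, Igfbp3 at -1.40 and the kinase Prkci at -0.61.

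In aorta taken alone, 0 of 9 genes passed in A vs G, where 4.26% of genes were called, and 0 of 9 in C vs G, where 6.67% were called. At an unadjusted p below 0.05, limma called 2 of 9 in A vs G, Grb10 and Pik3r1, where 20% of all genes were called, and 0 of 9 in C vs G, where 24.6% were. The aorta arrays of a group spread more than those of muscle, with a pooled SD within groups of 0.87 against 0.13 for Slc2a4 and 0.61 against 0.17 for Akt2.

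Grb10 stood at 7.27, 7.38 and 7.79 in healthy aorta and at 8.04, 7.88 and 7.97 in diabetic aorta. The groups did not overlap, and the diabetic arrays were the higher ones. The difference was 0.48 (SE 0.18, adjusted p = 0.148), and on slide 1, which holds 1 diabetic and 2 healthy aorta arrays, it was 0.51. In a fit of all 42 arrays with 14 means it passed at the same size (adjusted p = 0.0244).

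Pik3r1 stood at 8.74, 9.23 and 9.27 in healthy aorta and at 10, 9.34 and 9.31 in diabetic aorta. The diabetic arrays were higher without overlap, by a wide margin on the first array only. The difference was 0.47 (SE 0.22, adjusted p = 0.237), and with the brightest probe in place of the mean over probes it was 1.06 and passed (adjusted p = 0.0383). Its probes differed here. The brightest, A_52_P307938, averaged 9.87 in healthy and 10.93 in diabetic aorta, and A_51_P511236 averaged 8.78 and 9.57. Those of A_52_P235476 (8.28 and 8.24) and A_52_P407239 (9.39 and 9.46) lay close together. Igf1r stood at 7.67, 8.28 and 8.06 in healthy aorta and at 8.28, 8.48 and 8.45 in macroangiopathy aorta, a difference of 0.40 (adjusted p = 0.278).

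Cell markers moved with the aorta comparisons too. The mean of the 6 smooth muscle genes was 9.66 to 13.39 in healthy, 13.32 to 14.24 in diabetic and 14.12 to 14.57 in macroangiopathy aorta, with a median difference of 1.93 in A vs G (6 of 6 above 0, 0 passed) and 2.59 in C vs G (6 of 6 above 0, 2 passed). That of the red cell genes was 11.66 to 12.85, 12.94 to 14.07 and 13.58 to 13.73, with 1 of 3 higher in A vs G and 3 of 4 in C vs G. Of 5 brown adipocyte genes 1 was lower in each comparison, and of 8 white or shared adipocyte genes 1 was higher and 1 lower. Over the 21 aorta arrays, Grb10 and Pik3r1 ran with the smooth muscle level (r = 0.56 and 0.59) and with the red cell level (r = 0.58 and 0.57). They also ran with the endothelium level (r = 0.69 and 0.57) and against the lymphocyte level (r = -0.66 and -0.33). The part of these cells in the differences of the members and of the other pathway genes in aorta was not tested.

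The transporters did not separate the groups in aorta. Slc2a4 stood at 11.42, 14.59 and 14.14 in healthy, at 13.61, 14.18 and 13.22 in diabetic and at 13.72, 12.93 and 12.08 in macroangiopathy aorta. The healthy arrays spanned the whole range of the 21 aorta arrays, with a difference of 0.29 in A vs G (SE 0.66, adjusted p = 0.852) and -0.47 in C vs G (SE 0.66, adjusted p = 0.701). Slc2a1 ran the other way over these arrays, with 10.71 on healthy aorta array 1 and 9.21 on array 2, and differed by -0.19 and -0.11. Healthy aorta array 1 was also the lowest aorta array for Irs1, at 6.84.

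Other pathway genes did pass in aorta, 6 of 72 in A vs G and 6 of 76 in C vs G, where 4.26% and 6.67% of all genes were called. In A vs G the increases were Igfbp5 at 1.76, Grb14 at 1.16 and the IGF-2 receptor gene Igf2r at 0.89, and the decreases were Igfbp3 at -1.44, the kinase gene Mtor at -1.13 and Trib3, whose product binds AKT, at -1.01. In C vs G, Grb14 at 1.25, Igf2r at 0.85 and the adaptor Shc1 at 0.78 were the largest increases and Mtor at -1.24, Trib3 at -1.20 and Igfbp3 at -1.10 the decreases. Igfbp3 thus passed in both tissues and both comparisons, with the healthy arrays shared.

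Whether a difference was unlike in the tissues was tested with an interaction term (aorta difference minus muscle difference). None of the 9 genes passed after adjustment in any of the 7 comparisons, where the share of all genes called was 0.0743% and 0.108% against healthy mice (A and C), 3.05% with the huoxue part, 1.51% with rosiglitazone and 0% for the others. At an unadjusted p below 0.05, limma called 3 of 9 in A vs G, where 7.13% of all genes were called, and 2 of 9 in C vs G, where 12.4% were. It called 0 of 9 in C vs A (4.38% of all genes) and in B, D, E and F vs C (1.92%, 1.84%, 17.5% and 16.6%). Igf1r stood at 0.67 in A vs G (adjusted p = 0.682) and at 0.81 in C vs G (adjusted p = 0.264), Pik3r1 at 1.10 (adjusted p = 0.616) and 0.93 (adjusted p = 0.36), and Grb10 at 0.65 in A vs G (adjusted p = 0.56). For Igf1r and Pik3r1 the difference against healthy mice was below 0 in muscle and above 0 in aorta.

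**Figure D3:**
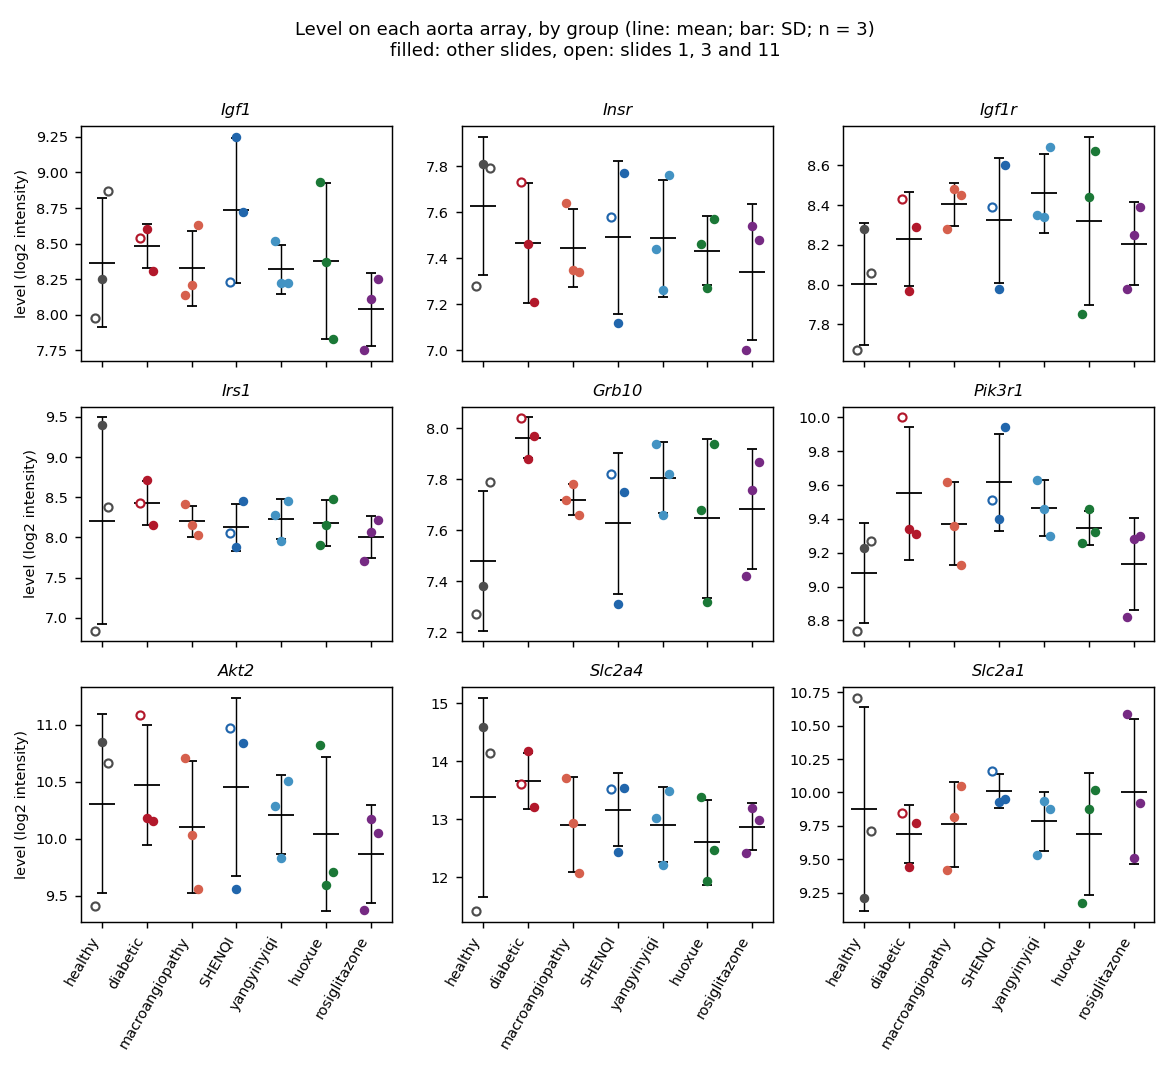
Level of each of the 9 genes on the 21 aorta arrays (y axis, log2 intensity; x axis, group), with 1 point per array, the mean as a line and the SD as a bar, and open points for arrays on slide 1. Healthy aorta array 1 is the open point at 11.42 for Slc2a4 and 6.84 for Irs1, and the groups overlap for both transporters.

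C vs A asks what the high-fat diet and L-NAME added to the diabetes of the KK/Ay strain. None of the 9 genes passed in both tissues together, in aorta or in muscle, and 0% of all genes did in each of these fits. At an unadjusted p below 0.05, limma also called 0 of 9 in all 3, where it called 5.12%, 1.73% and 3.66% of all genes. Slc2a4 stood at -0.37 over both tissues (SE 0.26, adjusted p = 0.965), and in muscle its group means were 14.98 (SD 0.05, n = 3) in diabetic and 15 (SD 0.04, n = 3) in macroangiopathy mice. Grb10 in aorta, at 7.72, 7.78 and 7.66 in macroangiopathy mice, lay below all 3 diabetic arrays.

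Each treated group was set against group C (B vs C, D vs C, E vs C and F vs C), and these comparisons share the 6 arrays of that group. Over both tissues, 0 of 9 genes passed in each, where 0%, 0%, 0% and 0.00631% of all genes did, and limma called 0 of 9 at an unadjusted p below 0.05 in each (2.71%, 3.4%, 14.3% and 12% of all genes). In aorta alone, 0 of 9 passed in each of the 4, where 0% of genes did, and 0 of 9 at an unadjusted p below 0.05 in limma (1.33%, 0.365%, 0.769% and 2.9% of all genes). In muscle alone, SHENQI compound and its yangyinyiqi part gave 0 of 9 (0% of all genes), and 0 of 9 at an unadjusted p below 0.05 in limma (1.19% and 1.14%), whereas the huoxue part gave 2 of 9, Slc2a4 lower and Grb10 higher, where 18.7% of all genes were called (8.23% higher, 10.5% lower), a share of members near the background. Rosiglitazone gave 0 of 9 in muscle, where 5.85% of all genes were called, and 2 of 9 at an unadjusted p below 0.05, where 21.9% were, the same 2 genes.

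In muscle, Slc2a4 stood at 14.97, 14.98 and 15.05 in the macroangiopathy group and at 14.41, 14.45 and 14.52 with the huoxue part. The treated arrays all lay below, within the range of the healthy muscle arrays. The difference was -0.54 (SE 0.11, adjusted p = 0.00332, 1.46-fold lower). With rosiglitazone Slc2a4 stood at 14.83, 14.59 and 14.59, again below every macroangiopathy array, and the difference was -0.34 (adjusted p = 0.0899).

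Grb10 in muscle stood at 7.96, 7.90 and 8.31 in the macroangiopathy group and at 8.38, 8.38 and 8.44 with the huoxue part. All treated arrays were higher, the third macroangiopathy array being close to them. The difference was 0.34 (SE 0.10, adjusted p = 0.0263, 1.27-fold higher), with its 3 probes at 0.29, 0.42 and 0.32, and it did not pass without macroangiopathy muscle array 1 or 2 or without any 1 of the huoxue arrays (adjusted p from 0.0587 to 0.131), nor with slide as a random block (0.30, adjusted p = 0.179). With rosiglitazone Grb10 stood at 8.32, 8.30 and 8.29, a difference of 0.25 (adjusted p = 0.164).

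All huoxue and rosiglitazone muscle arrays lay on slides 3 and 11, and no macroangiopathy muscle array did, so slide and treatment cannot be told apart. The share of probes well above background was lowest on the 4 arrays of slide 11, at 53.83% to 57.3%. Grb10 read 8.29 to 8.44 on the 8 muscle arrays of slides 3 and 11, healthy ones included, and 7.90 to 8.31 on the 13 others. With a term for slides 1, 3 and 11 over 42 arrays, the huoxue differences were -0.20 for Slc2a4 and 0.17 for Grb10, with an adjusted p of 1 for both. Neither gene passed in the same model without the term. That term was estimated from healthy muscle and from aorta arrays, in groups split between these slides and others. It therefore could not tell slide 11 from the huoxue treatment. Skeletal muscle markers averaged 16.47 to 16.51 on macroangiopathy muscle arrays, 15.94 to 16.20 with the huoxue part, where 3 of 8 were lower, and 16.31 to 16.40 with rosiglitazone, where 1 of 8 was lower. Slc2a4 in muscle ran with that level (r = 0.61 over 21 arrays). It ran against the macrophage (r = -0.63), red cell (r = -0.58), liver (r = -0.57) and lymphocyte (r = -0.51) levels. Of 5 macrophage genes 1 was higher with each of these treatments, and of 5 endothelium genes 1 was lower with the huoxue part. The part of these cells in the result was not tested.

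With SHENQI compound, Igf1 came nearest to passing over both tissues, at 0.32 (SE 0.16, adjusted p = 1, unadjusted p = 0.0617 in limma). It stood at 8.23, 9.25 and 8.72 in treated and 8.14, 8.21 and 8.63 in untreated macroangiopathy aorta, and at 8.58, 8.77 and 8.89 against 8.59, 8.54 and 8.38 in muscle. The highest arrays were treated ones in each tissue, and the groups overlapped. On slide 7, which holds 2 muscle arrays of each of these groups, the difference was 0.26 for Igf1 and within 0.26 either way for the other genes.

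With the yangyinyiqi part, the differences over both tissues were small, such as 0.05 for Igf1r, 0.01 for Slc2a4 and -0.03 for Slc2a1. On slide 8, with 3 treated muscle arrays and 1 untreated, Igf1 stood at 0.30 and Slc2a4 at -0.03. With rosiglitazone, Slc2a1 stood at 0.26 over both tissues (SE 0.18, adjusted p = 0.611), and its muscle arrays (9.69, 9.16 and 9.60) overlapped those of the macroangiopathy group.

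Of the other pathway genes, none passed with SHENQI compound or its yangyinyiqi part in aorta or muscle. Over both tissues 0 passed in C vs A and in B, D, E and F vs C, with 8, 4, 3, 6 and 8 at an unadjusted p below 0.05 in limma. Of all genes, 5.12%, 2.71%, 3.4%, 14.3% and 12% were called at that threshold. In muscle with the huoxue part, 12 of 69 passed, 4 higher and 8 lower, where 18.7% of all genes were called. The largest increases were in Foxo4 at 0.55, the kinase Prkcz at 0.44 and Snap23, which takes part in the fusion of GLUT4 vesicles, at 0.31. The largest decreases were in Igfbp6 at -1.71, the phosphoinositide 3-kinase gene Pik3cd at -1.03 and Igfbp4 at -0.98. With rosiglitazone 4 of 70 were lower, led by Igfbp6 at -1.30, Pik3cd at -0.82 and Igfbp4 at -0.67, where 5.85% of all genes were called. These arrays too lay on slides 3 and 11.

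**Figure D4:**
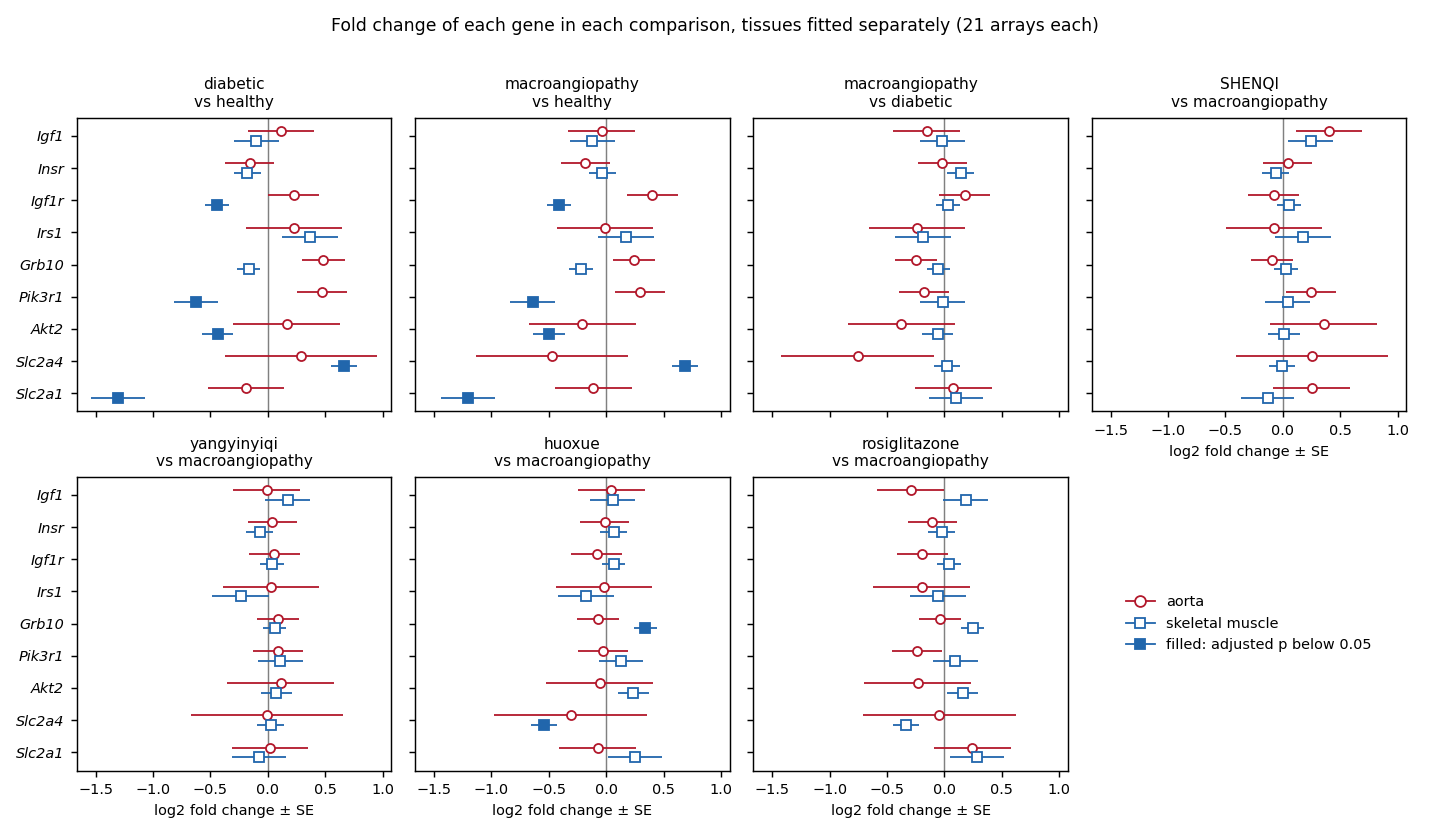
Log2 fold change with its SE (x axis) of each gene (y axis) in each of the 7 comparisons, fitted in aorta (circles) and in skeletal muscle (squares) separately, with filled symbols for an adjusted p below 0.05. Filled symbols stand in muscle only: 5 genes in each comparison with healthy mice, and Slc2a4 and Grb10 in huoxue vs macroangiopathy.

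Over the arrays, the transporters ran against each other. With each tissue's mean subtracted, Slc2a4 and Slc2a1 had a Pearson r of -0.59 over 42 arrays, -0.69 within aorta and -0.72 within muscle. Insr ran with Akt2 (r = 0.76, with 0.81 within aorta and 0.58 within muscle). Irs1 ran with Slc2a4 (r = 0.67), with 0.78 within aorta but 0.32 within muscle. These arrays share slides, groups and normalization, and the values are descriptions.

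By the same measure, the gene most like each member among 16106 genes was Akr7a5 for Slc2a4 (r = 0.915), Sgta for Akt2 (r = 0.906), Lpp for Igf1r (r = 0.864), Furin for Insr (r = 0.832), Ick for Grb10 (r = 0.811), Sesn1 for Slc2a1 (r = 0.811), Palm2 for Irs1 (r = 0.729), Pla2g16 for Igf1 (r = 0.721) and Pttg1ip for Pik3r1 (r = 0.701). The highest r was found for Slc2a4, whose level also spread most within groups in aorta.

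The probes of a gene did not always move together with the huoxue part either. Igf1r in muscle was higher by 0.32 (adjusted p = 0.0168 over all probes) through A_51_P318365 and lower by -0.47 (adjusted p = 0.0316) through A_51_P474538, and the mean over its 4 probes did not pass. Akt2 was higher by 0.41 (adjusted p = 0.03) through A_52_P2977 and stood at 0.06 through A_51_P408044. The gene values of Igf1, Insr, Irs1, Grb10, Igf1r, Pik3r1 and Akt2 are means over such probes, whereas those of Slc2a4 and Slc2a1 rest on 1 probe each.

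**Figure D5:**
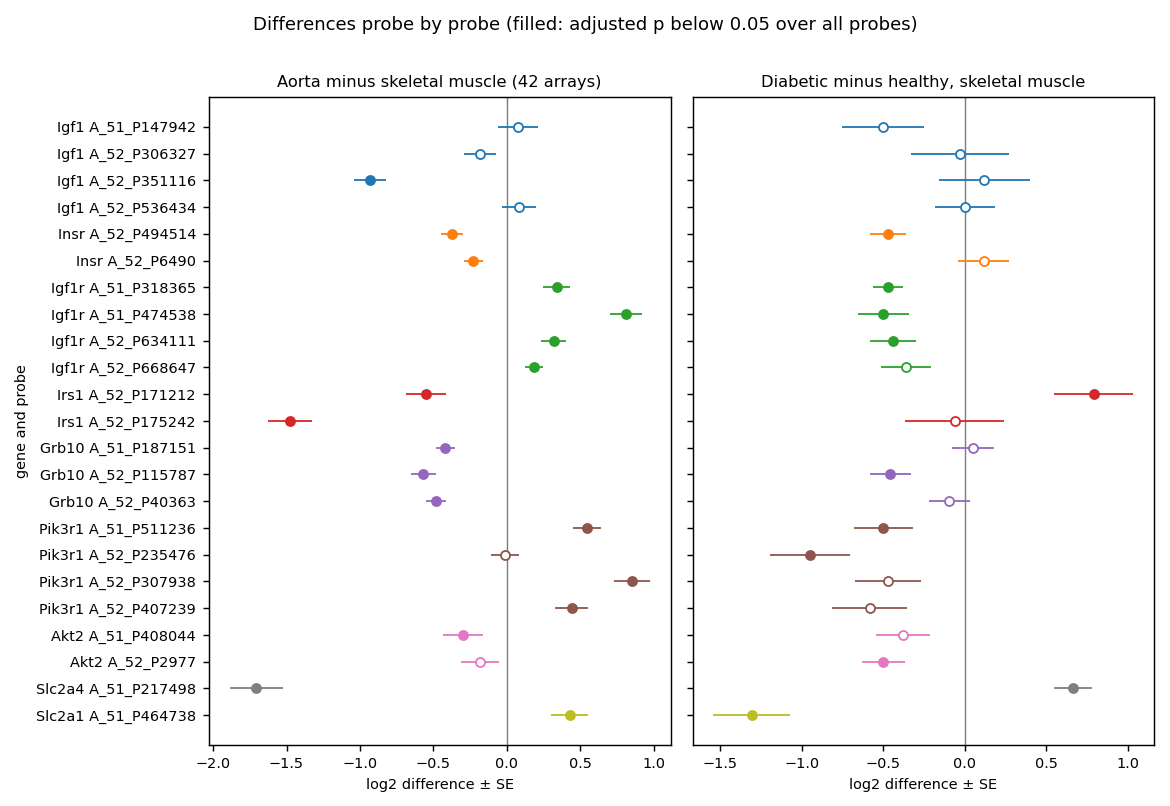
Log2 difference with its SE (x axis) for each of the 23 probes (y axis), between aorta and skeletal muscle over 42 arrays (left) and between diabetic and healthy skeletal muscle (right), with filled points for an adjusted p below 0.05 over all probes. The probes of Igf1r and Pik3r1 lie below 0 on the right, whereas those of Igf1 on the left, and of Insr and Irs1 on the right, lie on both sides of 0.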

How the data were processed

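Total RNA of each sample was labelled and hybridized by the authors to 1 Agilent array, and the scanner output was made with Agilent Feature Extraction 10.7.3.1 (10.7 in the submitters' processing notes). The deposited intensity of a spot is the median over its pixels, with that of the local background, before correction. Of the deposited files, 8 hold all columns and 34 a shorter set. The deposited table of log2 values of 41267 probes, which the authors normalized, served as an alternative. Deposited marks give spots well above background, irregular spots and saturated spots.

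Intensities of 45018 spots per array, without 1639 control spots, were corrected with normexp (offset 0), put on the log2 scale and quantile normalized over 42 arrays with limma 3.58.1, as the methods name limma, in R 4.3.3 with the package data.table (version 1.17.8). Irregular spots were set to missing, and spots and then probes of a symbol were averaged (41174 probes, 34891 with a symbol). Array number limits the precision. Genes entered a test if any 1 of the sets compared had a probe above background in its 3 arrays. lmFit and eBayes with Benjamini-Hochberg adjustment over all genes tested (threshold 0.05) were run on 12 arrays per comparison with tissue as a term, with its interaction, on the 21 arrays of each tissue, and on 42 arrays for the tissues. Groups and replicate numbers came from the labels. The fits were tested on simulated data.

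The members, the lists of 78 other pathway genes and of cell markers, and the tests were chosen with earlier results of these data known. Named were all members, up to 3 other pathway genes with the largest increase and decrease per comparison, and the gene most correlated with each member. The result for 1 other pathway gene is not reported here. Alternatives were other background corrections, scalings, filters and probe rules, the authors' values, eBayes options, slide and replicate blocks, other sets of arrays and each array left out. Those on slides 1, 3 and 11, on bright probes and on arrays that stand apart were chosen after seeing the data. Figures were drawn in Python 3.11.15 with matplotlib.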

Additional observations from a re-analysis of the deposited data

Results flagged for a closer look

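Differences between the tissues passed the interaction test for 3 other genes of the pathway, in 4 pairs of gene and comparison, and for none of the 9 genes. Of all genes, 3.05% passed that test with the huoxue part and 1.51% with rosiglitazone. Igfbp6, a binding protein of insulin-like growth factors, stood at 11.41, 11.59 and 11.50 in macroangiopathy muscle, at 9.80, 9.91 and 9.67 with the huoxue part and at 10.56, 10.06 and 9.98 with rosiglitazone, without overlap, whereas its aorta arrays overlapped (10.58 to 11.13, 10.69 to 11.81 and 10.88 to 11.35). Its interaction (aorta difference minus muscle difference) was 2.04 with the huoxue part (SE 0.35, adjusted p = 0.0132 in limma), from 0.32 in aorta and -1.71 in muscle, and 1.56 with rosiglitazone (SE 0.28, adjusted p = 0.0299), from 0.26 in aorta and -1.30 in muscle.

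Igfbp4, of the same family, stood at 7.89, 8.01 and 8.01 in macroangiopathy muscle and at 7.06, 7.16 and 6.74 with the huoxue part, and its interaction was 0.91 (SE 0.18, adjusted p = 0.0245), from -0.07 in aorta and -0.98 in muscle. Pik3r2, which encodes another regulatory subunit of phosphoinositide 3-kinase, had an interaction of -0.79 with the huoxue part (SE 0.16, adjusted p = 0.0244), from -0.42 in aorta and 0.37 in muscle, neither of which passed alone. All treated muscle arrays of these comparisons lay on slides 3 and 11 and no macroangiopathy array did, so slide and treatment cannot be told apart.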

How the results depend on the processing

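Of 152 values of called genes under another normalization, filter or probe rule, 148 kept direction and call, 3 fell short of the threshold and 1 turned in direction. Under another model, block or set of arrays 109 of 166 kept them, 50 fell short and 7 turned, and with single arrays left out 572 of 588 kept them and 16 fell short. Over all alternatives, of 7725 values of genes not called, 30 passed. A vs G over both tissues went from 0 called genes to 1 with all 42 arrays in 14 means (Slc2a1 -0.75, adjusted p = 0.0112), 1 with a term for slides 1, 3 and 11 (Slc2a1 -0.71, adjusted p = 0.0392) and 1 without the arrays of these slides, where healthy mice keep 1 array in each tissue (Akt2 -0.68, adjusted p = 0.0255), and C vs G from 0 to 1 with all 42 arrays (Slc2a1 -0.66, adjusted p = 0.0242). The interaction went from 0 pairs of gene and comparison to 1 with the slide term (Igf1r in C vs G, 0.81) and 5 over 5 comparisons without those slides, with the same 1 healthy array in each tissue, assumed to vary like the other groups (Pik3r1 1.0, Slc2a1 2.47 and Irs1 -1.48 in A vs G, Slc2a1 2.52 and Irs1 -1.53 in C vs G). The fits within a tissue went from 12 called pairs to 19 with the brightest probe of a gene, 3 with all 42 arrays, 3 with the slide term and 1 with only the 6 arrays compared. They went to 9 without 3 of the arrays that stand apart (healthy aorta 1, SHENQI aorta 2 and healthy muscle 3). Healthy muscle array 1 was kept in that fit, though it stood at 45.3 on the first component against 41.3 for SHENQI aorta 2. With slide as a random block, Pik3r1 and Akt2 in A vs G, Akt2 in C vs G and Grb10 with the huoxue part no longer passed in muscle, nor Igf1 between the tissues. The cause was not tested.

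Between the tissues the count went from 8 to 1 with slide as a fixed block, which rests on slide 4, the 1 slide that holds both tissues, and to 0 with only the 6 healthy arrays (1 at an unadjusted p below 0.05 in limma). With the slide block the difference turned to 0.29 for Igf1, -1.06 for Pik3r1, -1.56 for Slc2a1 and -0.73 for Igf1r, with the healthy arrays alone to -0.32 for Pik3r1, -0.53 for Slc2a1 and -0.19 for Igf1r, and with the brightest probe to 0.08 for Igf1. When single arrays were left out, the counts ran from 0 to 0 in each of the 7 comparisons over both tissues and in the interaction, from 9 to 14 within a tissue and from 8 to 9 between the tissues. Rosiglitazone in muscle gained Slc2a4 without healthy muscle array 1 (-0.34, adjusted p = 0.0325) or 2 (adjusted p = 0.0326). It gained Grb10 without macroangiopathy muscle array 3 (0.37, adjusted p = 0.0415) and with the brightest probe (0.47, adjusted p = 0.0278).

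Replicate numbers gave no sign of a pairing of the samples. Between groups, deviations of same-numbered arrays from their group means correlated from -0.543 to 0.598, and in 0 of 14 contrasts were all 3 pairs above 0.1. Between aorta and muscle of a group they correlated from -0.363 to 0.185, and in 0 of 7 groups were all 3 pairs above 0.1. Low values do not show that the tissues came from different mice. With the replicate block the counts were 0 in each comparison over both tissues, 0 for the interaction, 12 within a tissue and 8 between tissues. The fixed slide block could be fitted in 3 of 7 comparisons over both tissues. Dim probes of Irs1, Igf1 and Insr limit the gene means they enter.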
